A study of Mus musculus with 12 samples.

Results

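Costimulation and checkpoint ligands are surface proteins through which a cell encourages or restrains the T and NK cells it meets. The transcripts of 9 such genes, taken by gene symbol from the 33531 symbols in the files, were followed in mouse leukaemia cells: Cd274, Pdcd1lg2, Tnfsf9, Tnfsf4, Cd80, Cd86, Cd40, Icam1 and Il15ra. All 9 were found. The cells were the acute myeloid leukaemia line CMM-tetON-shStat3, which carries the inv(16) fusion of Cbfb with a myosin gene, a doxycycline-inducible hairpin RNA against Stat3, and GFP and mCherry (mCh) as markers. They were engrafted by vein into NSG mice, which lack mature T, B and NK cells. At about 1% leukaemia cells in blood the hosts were given PBS, CpG1668 (a synthetic CpG DNA that is a ligand of TLR9), doxycycline (Dox), or CpG1668 with Dox (CpG1668+Dox). GFP+mCh+ cells were sorted from the spleen on the day after the last treatment, and total RNA was sequenced from 3 libraries in each of the 4 groups. The labels give both a daily and an every-other-day schedule. All 4 groups carried the hairpin construct, and no group received Dox without it, so Dox itself and the hairpin cannot be told apart.

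PD-L1 (Cd274) and PD-L2 (Pdcd1lg2) engage PD-1 on T cells and dampen their activation. CD80 and CD86 bind CD28, which delivers the second signal a T cell needs, and also CTLA-4, which withdraws it. OX40L (Tnfsf4) and 4-1BBL (Tnfsf9) are TNF family ligands that sustain T cells already activated, CD40 is the receptor through which helper T cells license antigen-presenting cells, ICAM-1 is the adhesion ligand of the integrin LFA-1, and IL-15 receptor alpha presents IL-15 to NK and memory T cells. In dendritic cells and macrophages, TLR9 ligation is known to raise CD40, CD80 and CD86, and STAT3 is known to restrain such maturation.

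The deposited unit was RPKM, a read count normalised by gene length and by library depth, which allows levels to be compared between genes. Depth was 30468661 to 35051140 reads per library, and every one of the 108 values of the 9 genes converted to a whole number of reads, the farthest lying 0.006 reads from one. Libraries correlated at 0.992 to 0.996 within groups and at 0.97 to 0.994 between groups. The targeted transcript, Stat3, was not lower in the libraries labelled Dox (18.9 ± 0.173 RPKM, SD, n = 3) or CpG1668+Dox (19.4 ± 0.331) than in PBS (17.2 ± 0.576). With limma it was higher than in PBS in CpG1668+Dox (log2 0.16, adjusted p = 0.0068, kept under 22 of 22 alternatives) and in Dox (log2 0.13, adjusted p = 0.0439, kept under 8 of 22, adjusted p up to 0.154), so the Dox labels are used below as labels and not as evidence of knockdown. Whether each library was a separate mouse is not said in the labels, and p-values therefore measure only the spread between these libraries. In such bulk samples, fewer cells of a type and less RNA per cell cannot be told apart.

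The 9 transcripts spanned a wide range and kept nearly the same order in every group. In PBS the order was Pdcd1lg2 (11.2 ± 0.223 RPKM, SD, n = 3), Cd274 (7.52 ± 0.17), Icam1 (6.62 ± 0.102), Tnfsf4 (5.48 ± 0.284), Il15ra (3.02 ± 0.097), Tnfsf9 (2.11 ± 0.385), Cd80 (0.847 ± 0.112), Cd86 (0.217 ± 0.0129) and Cd40 (0.0243 ± 0.0135). The single change of place was in CpG1668+Dox, where Icam1 stood above Cd274. Neighbours in the order were separated by non-overlapping libraries in PBS. In CpG1668 the libraries of Cd274 and Icam1 overlapped, in Dox those of Cd274, Icam1 and Tnfsf4 and those of Il15ra and Tnfsf9, and in CpG1668+Dox those of Cd274 and Tnfsf4. Over the 12 libraries 6 genes had a mean RPKM of at least 1 and entered the main test, whereas Cd80, Cd86 and Cd40 lay below that level and were tested in a second fit that included low genes.

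**Figure D1:**
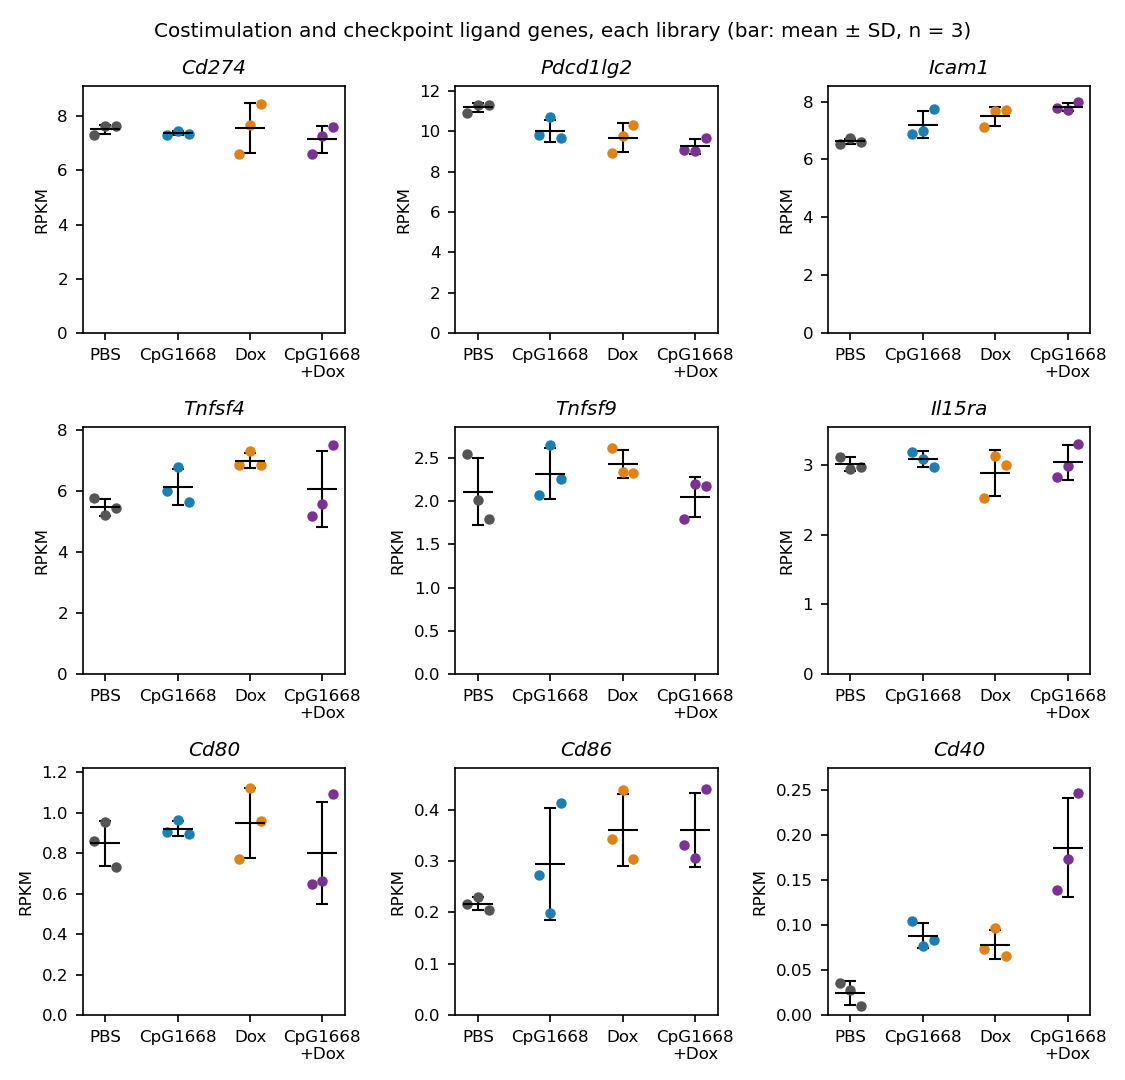
RPKM of each of the 9 genes in every library (points, 3 per group), with the group mean and SD (bars); each panel has its own axis from 0. Pdcd1lg2 lies below and Icam1 and Cd40 above the PBS libraries in all 9 treated libraries, whereas Cd274 and Il15ra overlap PBS in every group. The share of all genes with all 9 treated libraries beyond PBS was not counted.

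The checkpoint ligands PD-L1 and PD-L2 are encoded by neighbouring genes, Cd274 (ENSMUSG00000016496.7, chr19:29367455-29388095, plus strand) and Pdcd1lg2 (ENSMUSG00000016498.10, chr19:29410919-29471161, plus strand), both in GRCm38 (mm10) coordinates from GENCODE M21. Pdcd1lg2 fell in CpG1668+Dox, and Cd274 did not pass the test in any comparison. The PBS libraries had 10.9, 11.3 and 11.3 RPKM of Pdcd1lg2, and the CpG1668+Dox libraries 9.06, 9.01 and 9.67. The CpG1668 libraries had 9.79, 10.7 and 9.67, and the Dox libraries 8.93, 9.77 and 10.3. Every treated library thus lay below every PBS library, and the 3 treated groups overlapped one another apart from CpG1668 and CpG1668+Dox, which met at 9.67 after rounding. With limma the log2 change of Pdcd1lg2 in CpG1668+Dox against PBS was -0.25 (SE 0.053, 95% interval -0.36 to -0.13, adjusted p = 0.0081), or 0.828 of the PBS mean. It was -0.19 in Dox (adjusted p = 0.0599) and -0.14 in CpG1668 (adjusted p = 0.156), neither of which passed. CpG1668+Dox did not differ beyond the threshold from CpG1668 (-0.11, interval -0.22 to 0.01, adjusted p = 0.365) or from Dox (-0.06, interval -0.17 to 0.06, adjusted p = 0.736).

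Cd274 overlapped PBS in every group. Its libraries had 7.32, 7.62 and 7.62 RPKM in PBS, 7.32, 7.46 and 7.33 after CpG1668, 6.59, 7.67 and 8.44 after Dox, and 6.6, 7.26 and 7.59 after CpG1668+Dox. The Dox libraries spread on both sides of PBS and the other groups overlapped it. The interval of its log2 change against PBS ran from -0.18 to 0.13 in CpG1668 (adjusted p = 0.884), from -0.15 to 0.15 in Dox (adjusted p = 0.993) and from -0.22 to 0.09 in CpG1668+Dox (adjusted p = 0.572).

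Because the 2 transcripts were measured in the same library, their ratio was also taken. The Pdcd1lg2 to Cd274 ratio was 1.49, 1.49 and 1.48 in the PBS libraries, 1.34, 1.43 and 1.32 after CpG1668, 1.36, 1.28 and 1.22 after Dox, and 1.37, 1.24 and 1.27 after CpG1668+Dox. All 9 treated libraries had a lower ratio than all 3 PBS libraries. The group means were 1.48 ± 0.00619 in PBS, 1.36 ± 0.059 after CpG1668, 1.29 ± 0.0659 after Dox, and 1.3 ± 0.0691 after CpG1668+Dox (SD, n = 3). The ratio was looked at after the levels had been seen, so it is given without a test. Counting error alone, by group, was 3.34% to 3.43% of a library's value for Cd274 and 3.79% to 4.1% for Pdcd1lg2. The PBS ratios lay closer together than such errors, so their SD is not a guide to the spread of the ratio. A lower ratio does not say which of the 2 transcripts changed.

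The sequences just upstream of both genes are shown because the neighbours share a chromosome region while only Pdcd1lg2 passed the test. A difference between the 2 was not tested. That of Icam1 is shown because it moved the opposite way to Pdcd1lg2. Each is the 250 bases before the gene's start in the RefSeq promoter table (GRCm38.p6), 5′ to 3′ on the plus strand, with motif matches in capitals.
Pdcd1lg2 (chr19:29410669-29410918): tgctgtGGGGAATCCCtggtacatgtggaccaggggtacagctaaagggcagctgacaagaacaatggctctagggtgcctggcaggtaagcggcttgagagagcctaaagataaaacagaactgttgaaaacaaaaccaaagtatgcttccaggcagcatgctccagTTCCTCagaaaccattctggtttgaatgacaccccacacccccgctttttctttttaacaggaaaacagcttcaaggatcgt
Cd274 (chr19:29367188-29367437): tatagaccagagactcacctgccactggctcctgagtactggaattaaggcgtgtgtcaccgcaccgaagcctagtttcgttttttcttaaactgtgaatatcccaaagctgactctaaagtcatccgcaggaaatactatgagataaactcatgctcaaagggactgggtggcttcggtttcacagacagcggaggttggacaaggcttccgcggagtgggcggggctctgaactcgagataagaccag
Icam1 (chr9:21015690-21015939): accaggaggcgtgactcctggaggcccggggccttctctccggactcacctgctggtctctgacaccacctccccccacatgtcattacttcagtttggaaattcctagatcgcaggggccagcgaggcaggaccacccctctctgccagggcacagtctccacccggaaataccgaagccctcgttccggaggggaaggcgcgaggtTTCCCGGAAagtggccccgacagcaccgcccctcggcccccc
Motifs were searched on both strands. The NF-kappaB consensus was GGG, A or G, any 2 bases, C or T at 2 positions, then CC. The others were the STAT palindrome TTCNNNGAA, the interferon-stimulated response element (GAAA, any 2 bases, GAAA), and the PU.1 core GAGGAA. The Pdcd1lg2 window held an NF-kappaB match, GGGGAATCCC, at 244 to 235 bases upstream, and a PU.1 core on the minus strand at 82 to 77, read as TTCCTC on the plus strand. The Icam1 window held a STAT palindrome, TTCCCGGAA, at 42 to 34 bases upstream, and the Cd274 window held no match to these patterns. The NF-kappaB pattern needs GGG, so the letters tggaaattcc in the Icam1 window did not count. Looser forms were not searched, so an absence of NF-kappaB sites from Icam1 or Cd274 is not shown. Of 32851 promoters of the same length, 7.25% held the NF-kappaB consensus, 7.02% the STAT palindrome, 2.98% the interferon element and 23.3% the PU.1 core. RefSeq windows were found for 5 of the 9 genes (6 windows). The matches shown did not overlap each other, and a match is a description of letters and not a binding site.

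CD40 was the gene with the largest ratio to PBS among the 9, from a very low level. Cd40 (ENSMUSG00000017652.16, chr2:165055627-165072948, plus strand) had 0.0359, 0.0275 and 0.00954 RPKM in the PBS libraries, which stood for 4, 3 and 1 reads. The CpG1668 libraries had 0.104, 0.0766 and 0.0838 RPKM (11, 9 and 10 reads), and the Dox libraries 0.0735, 0.0964 and 0.0651 (8, 10 and 7 reads). The CpG1668+Dox libraries had 0.139, 0.173 and 0.247 RPKM (16, 20 and 26 reads). All 9 treated libraries were above all PBS libraries, CpG1668 and Dox overlapped, and CpG1668+Dox was above both.

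Cd40 rose in CpG1668+Dox against PBS, from 0.0243 ± 0.0135 to 0.186 ± 0.0549 RPKM (SD, n = 3). The ratio of means was 7.66, and the pooled reads, 62 against 8, gave a ratio of 7.51 with an exact 95% interval of 3.58 to 18.2 that covers counting error only. On the log2(RPKM + 1) scale, which shrinks changes of low genes, limma gave 0.21 (SE 0.029, adjusted p = 0.0016). Fitted to the recovered reads with limma-voom, an alternative chosen after the data were seen, the fold was 6.91 (95% interval 3.55 to 13.5, adjusted p = 0.0004). CpG1668+Dox also passed against Dox (log2 0.14, adjusted p = 0.0411), but that call was kept under 5 of 21 alternatives (adjusted p 0.021 to 0.245). Of the 12 libraries left out singly, it was kept without the first and without the third CpG1668+Dox library, and lost without any of the other 10 (adjusted p up to 0.13). With voom the fold was 2.25 (interval 1.36 to 3.72, adjusted p = 0.062). Against CpG1668 it missed the threshold (log2 0.12, adjusted p = 0.079).

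Cd40 in CpG1668 alone did not pass the main test against PBS (ratio of means 3.62, log2 0.09, adjusted p = 0.173) but passed with voom (fold 3.42, interval 1.68 to 6.99, adjusted p = 0.035). In Dox alone it passed neither (ratio of means 3.22, adjusted p = 0.273; voom fold 3.07, interval 1.48 to 6.36, adjusted p = 0.067). The interaction of CpG1668 and Dox was not called on either scale, and its sign depended on the scale (0.05 on log2(RPKM + 1), adjusted p = 0.936, and -0.60 with voom, adjusted p = 0.911). The level stayed the lowest of the 9 genes in every group.

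**Figure D2:**
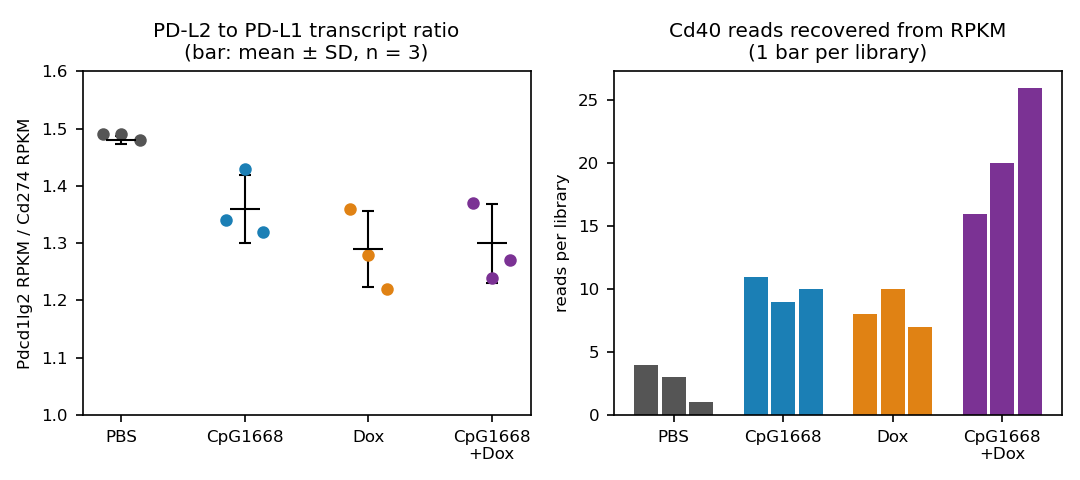
Left, the Pdcd1lg2 to Cd274 RPKM ratio in each library (points; bars are mean ± SD, n = 3; the axis starts at 1). Right, Cd40 reads in each library (1 bar per library, 3 per group); the ratio is 1.48 to 1.49 in PBS and 1.22 to 1.43 elsewhere, and Cd40 has 1 to 4 reads in PBS against 16 to 26 in CpG1668+Dox.

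The CD28 ligands differed from CD40 in that neither passed the test in any of the 7 contrasts. Cd86 (ENSMUSG00000022901.13, chr16:36603869-36666081, minus strand) had 0.217, 0.23 and 0.204 RPKM in PBS and 0.272, 0.198 and 0.413 in CpG1668. It had 0.342, 0.439 and 0.303 in Dox and 0.332, 0.306 and 0.441 in CpG1668+Dox. The libraries of both groups with Dox were all above PBS, whereas 1 CpG1668 library lay below it and 1 well above. The log2 change against PBS was 0.16 in CpG1668+Dox (interval 0.02 to 0.3, ratio of means 1.66, adjusted p = 0.17) and 0.16 in Dox (interval 0.02 to 0.3, ratio 1.66, adjusted p = 0.272). The pooled reads, 129 in CpG1668+Dox, 124 in Dox, 109 in CpG1668 and 76 in PBS, gave a CpG1668+Dox to PBS ratio of 1.64 with a counting interval of 1.23 to 2.21.

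Cd80 (ENSMUSG00000075122.5, chr16:38455561-38496335, plus strand) was higher than Cd86 in every library. It had 0.859, 0.952 and 0.729 RPKM in PBS, 0.902, 0.962 and 0.894 after CpG1668, 0.769, 1.12 and 0.958 after Dox, and 0.648, 0.661 and 1.09 after CpG1668+Dox. The groups overlapped, and 1 CpG1668+Dox library stood well above the other 2. The log2 change of Cd80 in CpG1668+Dox against PBS was -0.04 (interval -0.27 to 0.18, adjusted p = 0.871). With voom, which adds no 1 to RPKM, it was -0.13 with a wider interval (-0.55 to 0.29, adjusted p = 0.716). The Cd80 to Cd86 ratio, chosen like the other ratio after the levels were seen and not tested, was 3.89 ± 0.291 in PBS, 3.45 ± 1.35 after CpG1668, 2.65 ± 0.467 after Dox, and 2.19 ± 0.261 after CpG1668+Dox (SD, n = 3). Its libraries in PBS (3.95, 4.14 and 3.57) and in CpG1668+Dox (1.95, 2.16 and 2.47) did not overlap.

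Of the TNF family ligands, OX40L had its highest group mean in Dox and 4-1BBL overlapped PBS in every group. Tnfsf4 (ENSMUSG00000026700.4, chr1:161395409-161418410, plus strand) had 5.78, 5.21 and 5.45 RPKM in PBS, 6.0, 6.79 and 5.65 after CpG1668, 6.88, 7.31 and 6.86 after Dox, and 5.18, 5.57 and 7.52 after CpG1668+Dox. The Dox libraries were all above PBS and CpG1668, while CpG1668+Dox held both the lowest and the highest of the 12 libraries. The log2 change in Dox against PBS was 0.31 (SE 0.101, interval 0.08 to 0.53, ratio 1.28) and did not pass (adjusted p = 0.113). It passed without the third CpG1668+Dox library (adjusted p = 0.015) and when PBS and Dox alone were fitted (adjusted p = 0.024). The interaction of CpG1668 and Dox was -0.33 (interval -0.64 to -0.01, unadjusted p = 0.0418, adjusted p = 0.734).

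Tnfsf9 (ENSMUSG00000035678.8, chr17:57105325-57107757, plus strand) had 2.54, 2.01 and 1.79 RPKM in PBS, 2.07, 2.65 and 2.26 after CpG1668, 2.62, 2.34 and 2.33 after Dox, and 1.79, 2.2 and 2.18 after CpG1668+Dox. The PBS libraries alone covered most of the range of the treated ones. The log2 change against PBS was 0.1 in CpG1668 (interval -0.11 to 0.31), 0.15 in Dox (-0.06 to 0.36) and -0.02 in CpG1668+Dox (-0.23 to 0.19), with adjusted p of 0.614, 0.425 and 0.907. Tnfsf9 overlaps the opposite-strand transcript Gm11110, listed at 1.24 to 1.62 RPKM. The sources used here do not say that counting used strand, so reads of the pair may be mixed.

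ICAM-1 was the adhesion ligand among the 9 and rose in CpG1668+Dox. Icam1 (ENSMUSG00000037405.8, chr9:21015985-21028817, plus strand) had 6.54, 6.74 and 6.59 RPKM in PBS and 7.76, 7.69 and 7.98 in CpG1668+Dox. The CpG1668 libraries had 6.89, 6.98 and 7.73, and the Dox libraries 7.11, 7.67 and 7.7. Every treated library was above every PBS library, and the treated groups overlapped one another. The log2 change in CpG1668+Dox against PBS was 0.21 (SE 0.045, interval 0.11 to 0.31, ratio 1.18, adjusted p = 0.0086). It was 0.15 in Dox (ratio 1.13, adjusted p = 0.069) and 0.1 in CpG1668 (ratio 1.09, adjusted p = 0.217), which did not pass. CpG1668+Dox against CpG1668 gave 0.1 (interval 0.01 to 0.2, adjusted p = 0.29) and against Dox 0.05 (interval -0.04 to 0.15, adjusted p = 0.705). The opposite-strand transcript Gm47079, which overlaps Icam1, was listed at 0.224 to 0.421 RPKM.

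IL-15 receptor alpha did not pass the test in any contrast. Il15ra (ENSMUSG00000023206.16, chr2:11705290-11734317, plus strand) had 3.12, 2.94 and 2.98 RPKM in PBS, 3.19, 3.09 and 2.98 after CpG1668, 2.53, 3.14 and 3.01 after Dox, and 2.83, 2.99 and 3.31 after CpG1668+Dox. All groups overlapped. The log2 change in CpG1668+Dox against PBS was 0.01 (interval -0.13 to 0.15, adjusted p = 0.955). Its cytokine Il15 was listed at 0.296 ± 0.0201 RPKM in PBS and 0.469 ± 0.11 in CpG1668+Dox (SD, n = 3), a log2 change of 0.18 that did not pass (adjusted p = 0.093). Of the 4 genes of the IL-15 system, the 2 that entered the main test, Il15ra and Il2rg (the common gamma chain), were not called in any contrast. The fourth, Il2rb, a receptor chain on NK and T cells named after its values were seen, passed in CpG1668+Dox against PBS in the fit with low genes (0.00485 ± 0.0084 to 0.0429 ± 0.0135 RPKM, adjusted p = 0.027). Its level was near 0, the SD in PBS exceeded the mean, and no alternative was run for it.

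Counted over the 9 genes, CpG1668+Dox against PBS called 3: Cd40 and Icam1 higher and Pdcd1lg2 lower. In that comparison 15.5% of the 12167 genes in the main test were called, and 9.91% of the 28044 genes in the fit with low genes. Called higher were 9.13% and lower 6.4% of genes in the main test, and 6.94% and 2.97% with low genes included. Of the 6 genes in the main test 2 were called, and of the 3 low genes 1; with so few genes these counts are not read as a difference from the background. The calls of Icam1 and Pdcd1lg2 were kept under 22 of 22 alternatives (adjusted p up to 0.035 and 0.033) and that of Cd40 under 21 of 21 (up to 0.039), and voom called the same 3 genes, against 16.9% of its 18649 genes. The libraries of Icam1, Cd40 and Cd86 were all above PBS and those of Pdcd1lg2 all below. The background for that pattern in the main test was 18.8% of genes with all CpG1668+Dox libraries higher and 16.6% with all lower, and 15.2% and 10.7% with low genes included.

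With a single agent 0 of the 9 genes were called by limma. In CpG1668 against PBS, 5.88% of genes were called in the main test and 2.76% with low genes included; 3 of the 9 genes (Pdcd1lg2, Cd40 and Icam1) had an unadjusted p under 0.05, and voom called 1, Cd40, against 7.73% of genes. The libraries of Cd40 and Icam1 were all above PBS and those of Pdcd1lg2 all below, a pattern held by 11.3% (higher) and 14.3% (lower) of genes in the main test and by 10.8% and 9.08% with low genes included. In Dox against PBS the shares were 5.98% and 1.93%; 5 of the 9 genes (Pdcd1lg2, Tnfsf4, Cd86, Cd40 and Icam1) had an unadjusted p under 0.05, and voom called 0, against 6.63% of genes. The libraries of Tnfsf4, Cd86, Cd40 and Icam1 were all above PBS and those of Pdcd1lg2 all below, where the shares were 15.2% and 9.81% in the main test and 11.8% and 6.9% with low genes included. The 95% intervals of the 6 genes in the main test kept every log2 change between -0.26 and 0.36 in CpG1668 and between -0.3 and 0.53 in Dox. The 3 comparisons share the PBS libraries, so their values for a gene are not independent of each other. The shares above are per group, and the share of genes with every treated library beyond PBS was not counted.

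Between treated groups, CpG1668+Dox against Dox called 1 of the 9 genes, Cd40, against 3.48% of genes in the main test and 2.68% with low genes; voom called 0, against 5.46%. CpG1668+Dox against CpG1668 called 0 (2 with an unadjusted p under 0.05, Cd40 and Icam1; 0 with voom), against 3.26%, 1.43% and, with voom, 4.41% of genes. CpG1668 against Dox called 0 (0 with an unadjusted p under 0.05; 0 with voom), against 1.56%, 0.424% and 1.72%. The interaction of CpG1668 and Dox called 0 of the 9 genes (1 with an unadjusted p under 0.05, Tnfsf4; 0 with voom), against 0.0% of the genes in the main test, 0.0285% with low genes and 0.0107% with voom.

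**Figure D3:**
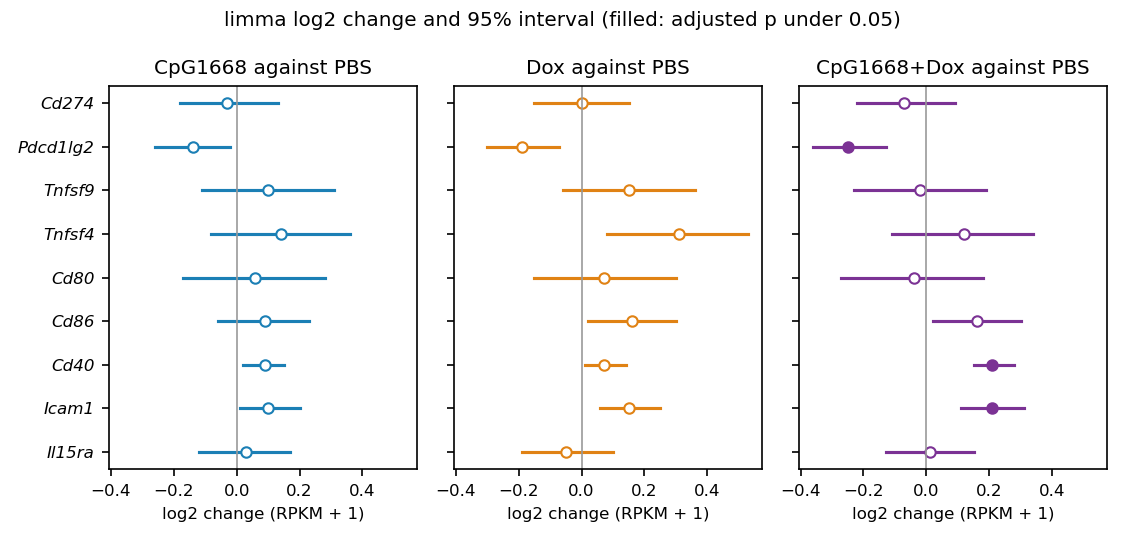
limma log2 change of RPKM + 1 (points) with its 95% interval (lines) for each gene in each treated group against the shared PBS libraries; filled points passed an adjusted p of 0.05. Cd40 and Icam1 (0.21 each) and Pdcd1lg2 (-0.25) are filled in CpG1668+Dox, and no point is filled for CpG1668 or Dox alone. This scale shrinks the changes and intervals of the low genes Cd80, Cd86 and Cd40. The ratio of means in CpG1668+Dox against PBS was 7.66 for Cd40 and 1.18 for Icam1.

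Other ligands of the same families and the partners of the 9 genes were counted from lists. List genes below the filter were read from the fit with low genes. Of 8 B7 family ligands, 4 entered the main test. In CpG1668+Dox against PBS 1 was higher, Vsir, and 2 were lower, Cd276 and Pdcd1lg2, with a list median of -0.14 against 0.0 for all genes. VISTA (Vsir) restrains T cells, and its transcript rose from 5.44 ± 0.201 to 11.8 ± 1.76 RPKM (SD, n = 3; log2 0.98, adjusted p = 1.2e-05). Vsir also rose against PBS in CpG1668 (7.75 ± 0.364; log2 0.44, adjusted p = 0.012; 0.052 without the third CpG1668 library) and in Dox (8.68 ± 0.695; log2 0.59, adjusted p = 0.0032). B7-H3 (Cd276), another B7 protein, fell from 15.6 ± 0.722 to 13.2 ± 0.154 RPKM (log2 -0.22, adjusted p = 0.013; 0.0503 without the first PBS library). Of the 3 B7 ligands below the filter 1 was called, the ICOS ligand Icosl. It was named after its values were seen, and rose from 0.403 ± 0.0675 to 0.895 ± 0.121 RPKM (log2 0.43, adjusted p = 0.006).

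Of 9 TNF superfamily genes, 4 entered the main test and 1 was called in CpG1668+Dox against PBS, Tnfsf14 (LIGHT). Its level was 10.3 ± 0.397 RPKM in PBS and 12.3 ± 0.318 in CpG1668+Dox (log2 0.24, adjusted p = 0.04), a call kept under 12 of 22 alternatives and lost on leaving out any PBS or any CpG1668+Dox library, or the third CpG1668 library (adjusted p up to 0.116 over the alternatives). Of the 4 TNF genes below the filter, Cd40 was called. Of 14 other inhibitory ligands and enzymes, 7 entered the test and 1 rose and 1 fell. Ceacam1, an inhibitory adhesion receptor, rose from 0.195 ± 0.106 to 2.46 ± 0.886 RPKM (adjusted p = 7.5e-05), and Tgfb1, an inhibitory cytokine, fell from 76.3 ± 2.4 to 66.6 ± 1.36 RPKM (log2 -0.19, adjusted p = 0.0017). Of the 7 below the filter, 6 could be fitted with low genes, of which 4 rose and 0 fell. They were Pvr (0.0241 ± 0.0115 to 0.236 ± 0.0535 RPKM, adjusted p = 0.00065), Entpd1 (0.102 ± 0.0233 to 0.425 ± 0.0529, adjusted p = 0.00087), Nt5e (0.145 ± 0.0054 to 0.243 ± 0.0189, adjusted p = 0.0045) and Il10, listed at 0 in PBS and at 0.17 ± 0.0493 in CpG1668+Dox (adjusted p = 0.0011), all named after their values were seen. Entpd1 (CD39) and Nt5e (CD73) are enzymes that make adenosine, and Il10 is an inhibitory cytokine.

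Beside Icam1, 7 of 8 adhesion partners entered the test, of which 4 rose (Cd48, Itgal, Itgb2 and Selplg) and 1 fell (Icam2) in CpG1668+Dox against PBS. Their median was 0.37. The gene below the filter, Alcam, named after its values were seen, rose in the fit with low genes (0.0648 ± 0.0223 to 0.338 ± 0.0607 RPKM, adjusted p = 0.00045). The subunits of LFA-1, the receptor of ICAM-1, were among them. Itgb2, which is also a subunit of other leukocyte integrins, rose from 7.6 ± 0.82 to 27.0 ± 4.59 RPKM (log2 1.69, adjusted p = 6.6e-06), and Itgal from 4.38 ± 0.216 to 8.41 ± 0.909 (log2 0.8, adjusted p = 0.00012). Of 11 lymphocyte-side receptors of the 9 ligands, the 3 that entered the test were Itgal, Itgb2 and Il2rg, of which 2 rose. Of the 7 below the filter, 6 could be fitted with low genes, and 1, Il2rb, was called. Tnfrsf4, the receptor of OX40L, named after its values were seen, had group means of 0.672 to 0.779 RPKM and was not called (adjusted p = 1.0), and those of the other 6 were at most 0.0474 RPKM.

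Genes upstream of the 9 were also compared in CpG1668+Dox against PBS. Ifngr1, a chain of the interferon-gamma receptor, rose from 1.98 ± 0.317 to 12.5 ± 2.03 RPKM (log2 2.17, adjusted p = 3.7e-07), and Irf8, a transcription factor of monocyte and dendritic cell development, from 0.376 ± 0.0802 to 2.89 ± 0.614 (log2 1.49, adjusted p = 1.5e-06). Socs3, a feedback inhibitor of cytokine signalling, rose from 0.58 ± 0.141 to 2.65 ± 0.34 RPKM (log2 1.21, adjusted p = 0.00015).

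Of 11 NF-kappaB feedback genes, 10 entered the test and 3 rose (Rel, Birc3 and Bcl3), 0 fell, with a median of 0.15. Rel rose from 0.779 ± 0.106 to 1.57 ± 0.122 RPKM (log2 0.53, adjusted p = 0.00069), while the call of Bcl3 (log2 0.36, adjusted p = 0.023) was kept under 15 of 21 alternatives and lost without 2 of the 3 PBS libraries (numbers 2 and 3) or 2 of the 3 CpG1668+Dox libraries (numbers 1 and 3; adjusted p up to 0.086), each left out singly. Of 10 CD40 and TLR signalling genes, 7 entered the test, 3 rose (Unc93b1, Myd88 and Traf2) and Traf5 fell. The call of Traf2 (log2 0.16, adjusted p = 0.015) was lost without the third PBS library, or the first or the third CpG1668+Dox library (adjusted p up to 0.0564). That of Traf5 (log2 -0.28, adjusted p = 0.017) was lost without the second PBS library or the third CpG1668+Dox library, and with PBS and CpG1668+Dox fitted alone (adjusted p up to 0.07). Unc93b1, which carries TLR9 to endosomes, rose from 2.63 ± 0.185 to 9.05 ± 1.74 RPKM (log2 1.46, adjusted p = 2.5e-06). Of the 3 genes of this list below the filter 2 rose in the fit with low genes, Tlr9 and Map3k14. Map3k14, the NF-kappaB inducing kinase, also named after its values were seen, went from 0.315 ± 0.0529 to 0.763 ± 0.0557 RPKM (adjusted p = 0.0011). Tlr9 rose from 0.0991 ± 0.0617 to 0.445 ± 0.0799 RPKM (log2 0.39, adjusted p = 0.001).

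**Figure D4:**
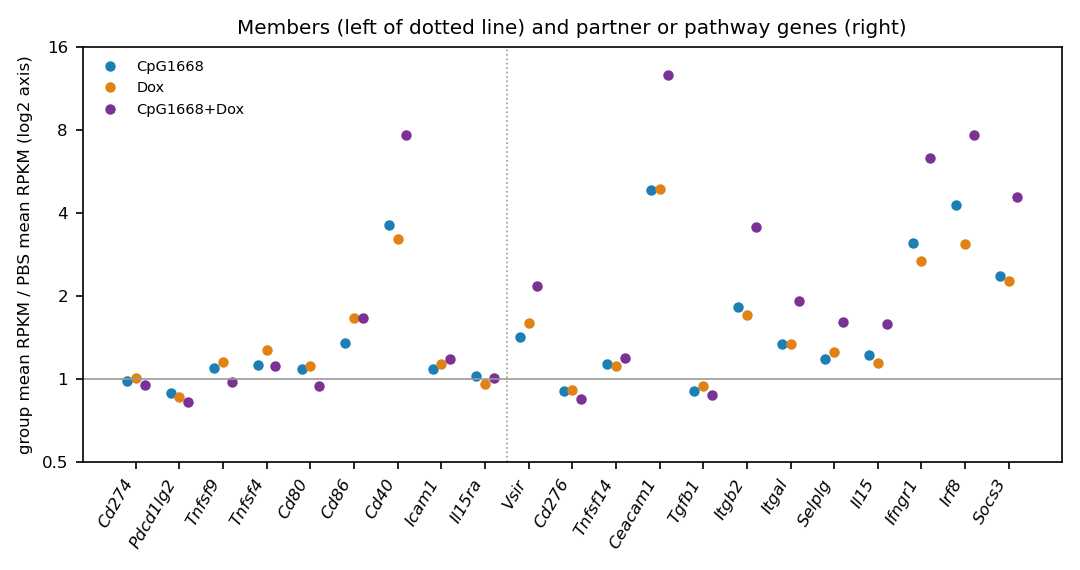
Ratio of group mean RPKM to the PBS mean (log2 axis) for the 9 genes (left of the dotted line) and for 12 partner or pathway genes (right). Of the 9 genes Cd40 is farthest from 1 in CpG1668+Dox (7.66), and Ceacam1 (12.6), Irf8 (7.7) and Ifngr1 (6.29) are far from it on the right.

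Markers of several cell types moved with the groups. The summed RPKM of 14 late neutrophil genes, all with a mean of at least 1, ran from 110 to 223 in PBS, 656 to 853 after CpG1668, 589 to 2350 after Dox, and 1750 to 4590 after CpG1668+Dox. That of 10 splenic macrophage genes, 7 of them with a mean of at least 1, ran from 8.25 to 19.2, 18.4 to 27.9, 15.6 to 21.3 and 21.4 to 38.1 in the same order. Over 7 myeloid cell genes the sum ran from 46.8 to 65.4, 200 to 219, 128 to 217 and 361 to 602, again in that order. The sum of 10 erythroid genes ran from 9890 to 13400, 3970 to 6870, 2070 to 5020 and 2120 to 3950 in the same order. Globin genes made most of it, with Hbb-bs at a mean of 5820 RPKM in PBS and 1370 in CpG1668+Dox. Alas2 was also lower (78.7 and 15.7), whereas Klf1 (49.0 and 47.4), Gata1 (104 and 89.8) and Epor (21.9 and 17.9) differed less. These genes were named after their values were seen. Cd79b, a B cell receptor chain named after its values were seen, had group means of 0.16, 0.578, 0.23 and 0.809 RPKM in PBS, CpG1668, Dox and CpG1668+Dox. Transcripts of the sorted leukaemia cells and of other cells sorted with them cannot be told apart in these samples. The part of other cells in the values of Cd40, Icam1 and Pdcd1lg2 was not tested.

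Dendritic cells are known for CD40, CD80 and CD86. Of 10 dendritic cell markers 0 had a mean of at least 1 over the 12 libraries, Xcr1, Clec9a, Ccr7 and Siglech were under 0.1, and the sum was 1.79 to 2.89 in PBS and 1.81 to 2.91 in CpG1668+Dox. Single markers went both ways between the means of PBS and CpG1668+Dox: Itgax was at 0.478 and 1.13 RPKM, Batf3 at 0.0654 and 0.261, and Flt3 at 0.109 and 0.315, against 0.924 and 0.264 for Zbtb46 and 0.265 and 0.0 for Cd209a. Apart from Cd209a in CpG1668+Dox, each of these means was above that of Cd40 in the same group. The rest of the list was above Cd40 in PBS but below it (0.186) in CpG1668+Dox. Those means in CpG1668+Dox were 0.0594 for Xcr1, 0.0623 for Clec9a, 0.0675 for Ccr7, 0.108 for Siglech and 0.094 for Fscn1. These genes were named after their values were seen, and the part of dendritic cells in the values of Cd40, Cd80 and Cd86 was not tested. Of 10 T and NK cell markers 9 were under 0.1, and the sum of the 10 was 0.0834 to 0.274 in PBS and 0.582 to 0.71 in CpG1668+Dox. Most of that sum in CpG1668+Dox was Cd3d, with means of 0.0399 RPKM in PBS and 0.466 in CpG1668+Dox. The highest of the other 9 was Cd4, at 0.101 and 0.0433. Both were named after their values were seen. None of the dendritic, T and NK cell markers was listed at 0 in all libraries. The sum of 5 leukaemia and early progenitor genes was 149 to 160 in PBS and 140 to 151 in CpG1668+Dox. Myc was the highest of them, with means of 83.8 and 74.4 RPKM. The sum does not show Cd34, which had means of 0.0404 in PBS and 0.395 in CpG1668+Dox. Both were named after their values were seen.

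The genes most like each ligand were taken by Pearson's r of log2(RPKM + 1) over the 12 libraries, as a description that shares the group differences and the libraries. For Icam1 they were Msra (r = 0.96), Nupr1 (0.96) and Ltf (0.94). Ltf, a neutrophil granule gene and one of the late neutrophil markers above, had group means of 5.92, 23.8, 50.8 and 103 RPKM in PBS, CpG1668, Dox and CpG1668+Dox. For Pdcd1lg2 they were Zfp101 (0.93), Lyrm9 (0.91) and Gtf3c3 (0.91), each highest in PBS. For Tnfsf4 they were Psrc1 (0.94), Mon1b (0.92) and Pcnx3 (0.91), each highest in Dox. The closest genes were less like Cd274 (Trim12a, 0.86), Tnfsf9 (Ttll1, 0.89) and Il15ra (Ptpre, 0.84). Among the 9 genes, Cd86 and Icam1 had r = 0.83, Cd40 and Icam1 0.76, and Pdcd1lg2 had -0.68 with both Icam1 and Cd40. The neighbours Cd274 and Pdcd1lg2 had r = 0.59.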

How the data were processed

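RNA of sorted GFP+mCh+ CMM-tetON-shStat3 cells was sequenced in 12 libraries, 3 per group, grouped by their titles. The deposited files hold RPKM values that the authors made for 33531 gene symbols. Per the submitters' processing notes, STAR 2.7.9, Partek 7.18.0723 and mm10 were used; for the step of each tool, the annotation and the strand setting, the answer is not given in the sources used here. Of the symbols, 96.6% matched GENCODE M21 (GRCm38).

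The 12167 genes whose mean RPKM was 1 or more were fitted as log2(RPKM + 1) with limma 3.58.1 in R 4.3.3, in 1 model of 4 group means (8 residual degrees of freedom, intensity trend). A second fit took genes above 0 in at least 3 libraries (28044) and serves Cd80, Cd86, Cd40 and other low genes. P-values were adjusted by Benjamini-Hochberg over all genes of a fit, and called means under 0.05. Depth was recovered as the read total that makes RPKM times exon length whole: it was 30468661 to 35051140 reads, at which 73.5% to 74.4% of the 11628 to 12393 low-count genes per library lay within 0.05 of a whole read. limma-voom on those reads (18649 genes with a mean of at least 3) was added after the data were seen. The other alternatives were pseudocount, filter, scaling, trend, samples fitted, the replicate number as a block, and omission of each library in turn. Il2rb and the other low genes said to be named after their values were seen were not run through the alternatives. Scripts were tested on simulated data.

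The 9 genes, the gene lists and the cell markers were chosen with earlier results of these data known. Named beside the 9 were Stat3, Irf8, Tlr9, Il15 and, per list and contrast, up to 3 called genes with the largest moderated t, and the 3 genes most correlated with each of the 9 that had a mean of at least 1; the text says where another gene was picked with its values known. Replicate numbers did not pair the libraries: same-numbered libraries of different groups correlated at -0.21 to 0.27 in their deviations from the group means (18 pairs, 2 over 0.1). The labels give no batch. No 2 files held identical values. Some genes and the lists that hold them are not reported here.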

Additional observations from a re-analysis of the deposited data

How the results depend on the processing

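Of the 9 genes, 3 were called in CpG1668+Dox against PBS on leaving out any 1 library (3 to 3). In CpG1668 against PBS voom called 1 (Cd40), and leaving out a library gave 0 to 1 (Cd40, without the third CpG1668+Dox library). In Dox against PBS median-of-ratios scaling called 1 (Pdcd1lg2), a fit of the compared groups alone 1 (Tnfsf4), and leaving out a library 0 to 1: Icam1 without the third CpG1668 library or the first Dox library, Pdcd1lg2 without the third Dox library, Tnfsf4 without the third CpG1668+Dox library. In CpG1668+Dox against Dox the call of Cd40 was lost, giving 0, with a pseudocount of 0.1 (with or without the filter), a mean of at least 5 (Cd40 is then untested), quantile normalization, the compared groups alone, voom and the replicate block. Leaving out a library gave 0 to 2, 2 being Tnfsf4 and Cd40 without the third CpG1668+Dox library. The replicate block, for numbers that do not pair the libraries, changed the call of no other of the 9 genes. The causes were not tested.

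Signs turned for small changes: Cd274 in Dox against PBS was -0.01 with median-of-ratios or quantile scaling, Il15ra in CpG1668+Dox against PBS -0.01 and -0.05 with the same scalings, Cd80 in CpG1668 against PBS -0.01 with quantile normalization, and the Cd40 interaction -0.60 with voom. Leaving out a library in turn also turned signs, over these ranges of log2 change. For Cd274 they were -0.07 to 0.09 in Dox against PBS, -0.08 to 0.01 in CpG1668+Dox against CpG1668, -0.15 to 0.01 in CpG1668+Dox against Dox, -0.11 to 0.05 in CpG1668 against Dox, -0.13 to 0.03 in the interaction. For Il15ra they were -0.09 to 0.02 in Dox against PBS, -0.04 to 0.05 in CpG1668+Dox against PBS, -0.07 to 0.02 in CpG1668+Dox against CpG1668, -0.02 to 0.1 in CpG1668+Dox against Dox, -0.04 to 0.08 in the interaction. For Pdcd1lg2 they were -0.0 to 0.09 in CpG1668 against Dox. For Tnfsf4 they were -0.02 to 0.21 in CpG1668+Dox against PBS, -0.16 to 0.07 in CpG1668+Dox against CpG1668. For Tnfsf9 they were -0.1 to 0.07 in CpG1668+Dox against PBS, -0.12 to 0.01 in CpG1668 against Dox. For Cd80 they were -0.16 to 0.01 in CpG1668+Dox against PBS, -0.09 to 0.04 in CpG1668 against Dox. For Cd86 they were -0.04 to 0.04 in CpG1668+Dox against Dox. Myd88 in Dox against PBS was -0.01 without the third PBS library. At 1 to 4 reads in PBS, depth limits the size of the Cd40 change.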
